A study of Homo sapiens with 24 samples.

Results

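The genes described are long intergenic noncoding RNAs, taken as every gene whose symbol is LINC followed by digits alone and whose deposited TPM was at least 0.5 in at least 2 of the 6 libraries of the second table. Members were thus selected on their measured level in that table, and 221 of the 1929 LINC symbols listed met the rule, where 17579 of the 58884 genes of any kind met the same minimum. TPM, the scale of the deposited values, corrects the reads of a gene for transcript length and sets the sum of each library to a constant.

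LINC symbols are systematic names given to long noncoding RNA genes that lie between protein-coding genes and have no name of their own, while antisense, divergent and host transcripts carry other suffixes. Such RNAs are mostly spliced and polyadenylated, are often present at low levels in few cell types, and some act on the transcription of a neighbouring gene, on chromatin complexes or as sponges, while many have no known role. SETD2 is the enzyme that trimethylates lysine 36 of histone H3 (H3K36me3) over transcribed gene bodies, a mark that limits transcription from within genes.

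RNA was sequenced from HEK293T, a human embryonic kidney cell line, in 10 libraries. The question was how the loss of SETD2, and its return in full length or without its N-terminal part, bears on transcription. The first table (batch 1 in the labels) holds 2 untreated wild-type (WT) libraries and 2 untreated libraries labelled KO, a SETD2 knockout derivative of the line. The second table (batch 2) holds 2 untreated libraries labelled KO, 2 of the knockout rescued with full-length SETD2 (SETD2 FL) and 2 of the knockout rescued with a C-terminal segment (SETD2 C, labelled N3, residues 1404 to 2564). The constructs carried a GFP or Halo tag, were driven by a CMV promoter and were introduced by transfection, with RNA isolated 72 h later. The libraries labelled KO in the second table were untreated, and no library of vector-transfected knockout cells was analysed here, so transfection itself and the constructs cannot be told apart against KO. The labels do not say whether replicates came from separate cultures, so p-values measure only the spread between these samples. TPM keeps no record of depth, which is unknown for each library. In bulk RNA, fewer cells with a transcript and less of it per cell cannot be told apart.

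SETD2 (ENSG00000181555, chromosome 3 of GRCh38 from 47016428 to 47164113, minus strand) had a TPM of 12.6 and 14.8 in the WT libraries and of 16.2 and 16.3 in the libraries labelled KO of the first table. Its transcript was not lower in the libraries labelled KO (log2 fold change of -0.11 for WT against KO, standard error (SE) of 0.08, adjusted p = 0.408, limma with Benjamini-Hochberg adjustment), which does not show whether the protein is made, and the groups are named as labelled. The second table listed it at a TPM of 11.99 and 12.15 in the libraries labelled KO, 439 and 422 under SETD2 FL, and 1329 and 1264 under SETD2 C. These values take in reads of the gene and of the constructs and are scaled to the annotated transcripts, while SETD2 C covers only a part of them, so they do not give the levels of the constructs themselves. Of the markers of the cell line, PAX2, LIN28B, NEFM, INA and NES were detected in every library, PAX2 at a TPM of 0.99 to 2.21 and NES at 1.23 to 4.31. The neuronal markers NEFM, INA and NES were higher in the SETD2 C libraries than in the other libraries of the second table, NEFM at 289 and 341 where the others lay between 111 and 126, and their part in the members' values was not tested. The pancreatic marker INS was listed at 0 in every library, the blood markers PTPRC and CD3E and the heart marker MYH7 reached at most 0.05, and the liver marker ALB at most 0.38. Of the fibroblast markers, PDGFRB reached at most 0.34. COL1A1 was at 12.06 and 10.73 under SETD2 C, between 6.83 and 8.97 in the other libraries of the second table and between 6.43 and 10.23 in the first, and its part in the members' values was not tested.

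Most members were low. The median of their mean TPM over the 6 libraries was 1.72, 78 members had a mean under 1, and 22 had a mean of at least 10. The 6 members with the highest means held 26.6% of the summed TPM of all 221. In all 6 libraries 151 members reached the minimum. A further 15 reached it in the SETD2 C libraries alone and so had to be high there, and 6 reached it in no SETD2 C library. At the edge of the rule, the second-highest TPM was 0.5 for LINC01166 and LINC02014 inside it, and 0.48 for LINC00304 and LINC01058 outside it.

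The name did not describe every member. By annotation (GENCODE 44, GRCh38) 205 members were lncRNA genes, 13 were pseudogenes, 2 were protein-coding and 1 could not be placed, and 25 had another symbol there. The symbol LINC01238 stands for 2 genes. Members lay on 23 chromosomes, 38 of them on chromosome 1, and had a median of 3 exons, a median reference transcript of 1389 bases and a median gene span of 13791 bases. The body of 42 members overlapped that of a protein-coding gene, in 18 cases on the same strand. A further 30 started within 5000 bases of a protein-coding start on the other strand and ran away from it, and 17 started within 10000 bases after the end of a protein-coding gene on the same strand, which left 131 in other positions. The median distance to the nearest protein-coding gene was 10499 bases. Whether counting used strand is not given in the sources used here, so values of members that overlap another gene are uncertain. Another annotated gene of any type overlapped 141 members.

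The most abundant member was LINC01578 (ENSG00000272888, chromosome 15 from 92819540 to 92899701, plus strand, 5 exons), also named CHASERR, which is known to repress its neighbour CHD2. Its deposited TPM stood at 85.7 and 79.9 in the libraries labelled KO, 75.3 and 81.5 under SETD2 FL, and 113 and 130 under SETD2 C. Both SETD2 C libraries lay above all other libraries of that table, at a log2 fold change of 0.40 against KO (SE of 0.07), under the 2-fold minimum. CHD2, a chromatin remodeller whose annotated body overlaps LINC01578 on the same strand, had a log2 fold change of 0.46 (SE of 0.10). LINC02210 (ENSG00000204650, chromosome 17 from 45620328 to 45655156, plus strand, 2 exons) lies within a readthrough gene with CRHR1 and had a TPM of 45.8 and 44.5 in KO, 44.6 and 43.9 under SETD2 FL, and 51.8 and 48.4 under SETD2 C. LINC01089 (ENSG00000212694, chromosome 12 from 121795267 to 121803906, minus strand, 7 exons), reported to restrain metastasis, had a TPM of 30.7 and 27.9 in KO, 24.4 and 22.9 under SETD2 FL, and 41.6 and 42.1 under SETD2 C. For LINC01089 the 3 groups did not overlap, SETD2 C being highest and SETD2 FL lowest. LINC02609 (ENSG00000233593, chromosome 1 from 90769086 to 90851671, minus strand, 3 exons) and LINC02381 (ENSG00000250742, chromosome 12 from 54126019 to 54147485, plus strand, 3 exons) were close in KO and under SETD2 C. The TPM of LINC02609 was 30.1 and 27.2 in KO, 24.13 and 24.95 under SETD2 FL, and 29.0 and 28.3 under SETD2 C, and that of LINC02381 was 23.6 and 23.2, 19.1 and 21.6, and 23.9 and 24.1. LINC01002 (ENSG00000282508, chromosome 19 from 198264 to 246544, minus strand, 4 exons) had a TPM of 21.9 and 24.1 in KO, 23.3 and 18.7 under SETD2 FL, and 33.8 and 32.6 under SETD2 C.

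More LINC genes were detected under SETD2 C. Of the 1929 listed, 662 and 620 had a TPM above 0 in the SETD2 C libraries, 547 and 542 under SETD2 FL, and 512 and 473 in the libraries labelled KO of the same table. In the libraries of the first table, 476 and 475 were above 0 in WT and 495 and 480 in KO. The members summed to a TPM of 1176 and 1193 under SETD2 C, 788 and 801.5 under SETD2 FL, and 836 and 801 in KO. Genes of every kind above 0 moved the same way, with 27104 and 26139 in the SETD2 C libraries, 25440 and 25134 under SETD2 FL, and 24691 and 24306 in KO. The summed TPM of the mitochondrially encoded genes was 29302 and 33691 under SETD2 C, 109506 and 77922 under SETD2 FL, and 70411 and 62297 in KO. The part of these differences between libraries in the members' values was not tested beyond the alternative scalings.

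**Figure D1:**
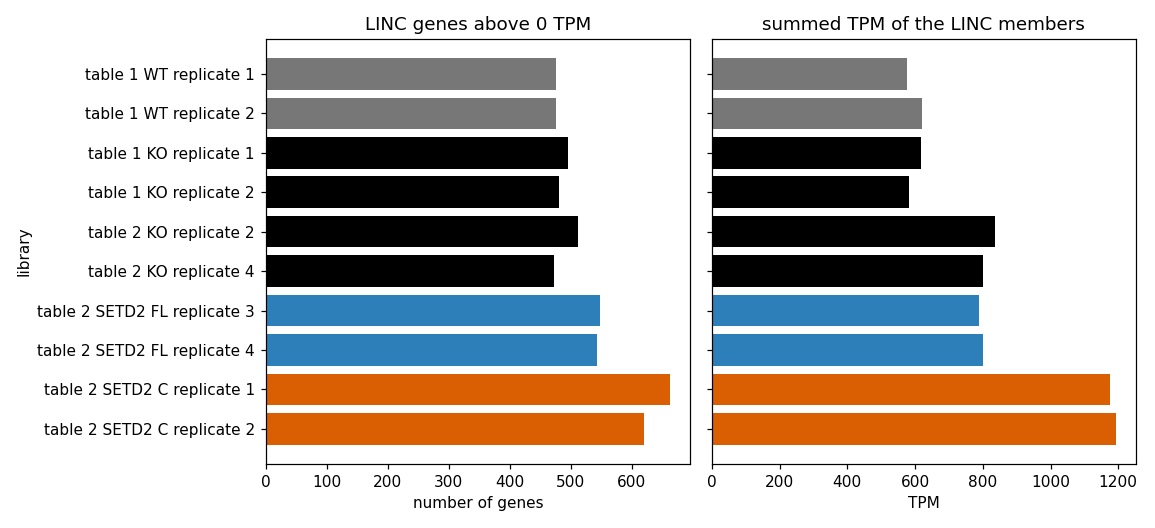
Number of LINC genes with a TPM above 0 (left, genes) and summed TPM of the 221 members (right) in each of the 10 libraries, 1 bar a library, with WT in grey, KO in black, SETD2 FL in blue and SETD2 C in orange. Both SETD2 C libraries are highest in both panels, at 662 and 620 genes and at a summed TPM of 1176 and 1193.

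With SETD2 C, more members were higher than lower relative to KO. A call took a change of 2-fold or more with an adjusted p not above 0.05. Of the 221 members, 26 were called higher (11.8%) and 1 lower (0.452%) by limma with Benjamini-Hochberg adjustment, where 3.75% of all 15947 genes tested were called higher and 0.314% lower. Other lncRNA genes stood between, with 7.42% called higher, and protein-coding genes at 2.99%. Named antisense genes had 7.38% called higher. Host genes, with symbols ending in HG, stood above the members at 3 of 21 (14.3%). The members' median log2 fold change was 0.38, with 187 of 221 above 0, against a median of 0.05 over all genes tested, 0.32 over other lncRNA genes and 0.01 over protein-coding genes. By the adjusted p alone, 78 members were higher (35.3%) and 3 lower (1.36%), where 21.1% of all genes were higher and 15.1% lower.

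Of the 26 members called higher, 8 met the rule through the SETD2 C libraries alone and therefore had to differ. Only 192 of the 221 members reached the minimum in at least 2 KO or SETD2 FL libraries, and the rest needed a SETD2 C library to enter. The selection may thus bear on more of the 26 than these 8, so these counts describe the members and support nothing. The independent view took genes at the minimum in at least 2 libraries of the first table, which the comparison does not use. It held 175 LINC genes, of which 15 were higher under SETD2 C (8.57%) and 1 lower, with a median of 0.35, where 2.79% of all genes so chosen were higher. Other lncRNA genes so chosen had 5.75% higher and a median of 0.26. The difference between LINC genes and other lncRNA genes was not tested. The count also moved with the processing, to 12 of 221 under quantile normalization, 12 at a pseudocount of 1, 17 of 143 at a mean TPM of at least 1, 33 without scaling and 35 at a pseudocount of 0.1. Over all genes the 598 called higher became 342, 336, 429, 801 and 989 in the same settings. The members' median was 0.15 under quantile normalization and 0.49 without scaling, where the median of all genes was -0.025 and 0.18.

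**Figure D2:**
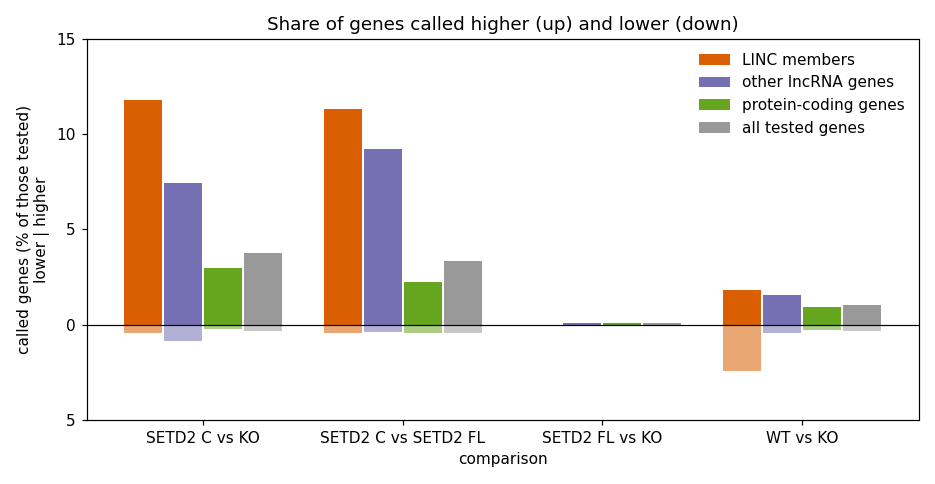
Percent of tested genes called higher (above the line) and lower (below, paler) in each comparison, for the 221 LINC members, other lncRNA genes, protein-coding genes and all genes. Members reach 11.8% higher for SETD2 C against KO and 11.3% against SETD2 FL, and in WT against KO 1.83% are higher and 2.44% lower, which is 3 and 4 genes.

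Among the largest increases was that of LINC01411 (ENSG00000249306, chromosome 5 from 174336295 to 174532457, plus strand, 4 exons). Its deposited TPM stood at 0.44 and 0.45 in the libraries labelled KO, 1.72 and 1.19 under SETD2 FL, and 5.72 and 5.56 under SETD2 C. The 3 groups did not overlap, SETD2 FL lying between the others. LINC01411 rose under SETD2 C by 2.59 on the log2 scale (SE of 0.17, adjusted p = 6.62e-05, limma with Benjamini-Hochberg adjustment), and the mean TPM was 12.7 times that in KO. Fold changes are on the scale of log2(scaled TPM + 0.5), which understates the change of low genes. Its nearest protein-coding gene, the neuronal gene NSG2, lies 92794 bases away and was under the minimum level.

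LINC01358 (ENSG00000237352, chromosome 1 from 58933643 to 59240555, plus strand, 14 exons) was listed at 0 in both libraries labelled KO. It was listed at 0 and 0.03 under SETD2 FL and had a TPM of 2.06 and 3.20 under SETD2 C. Both SETD2 C libraries stood far above the other 4. LINC01358 met the rule through the SETD2 C libraries alone and so had to differ, and no p-value is given for it. The nearest protein-coding gene, the carbohydrate kinase gene FGGY, is 56083 bases away and had a log2 fold change of 0.11 (SE of 0.13).

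LINC01952 (ENSG00000234183, chromosome 7 from 44848416 to 44849568, plus strand, 2 exons) was listed at 0 in both libraries labelled KO. It was at 0.48 and 0 under SETD2 FL, and at 2.59 and 1.09 under SETD2 C. The SETD2 C libraries were above the others but differed from each other more than 2-fold. LINC01952 too met the rule through the SETD2 C libraries alone and so had to differ. The RNA starts 329 bases from the start of H2AZ2, a gene for histone variant H2A.Z, on the other strand, and is named H2AZ2-DT in the annotation. H2AZ2 had a log2 fold change of 0.07 (SE of 0.05) in the same comparison.

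LINC01011 (ENSG00000244041, chromosome 6 from 2987967 to 2991173, plus strand, 2 exons) was the most abundant of the 6 members with the largest increases. Its deposited TPM stood at 2.31 and 2.40 in the libraries labelled KO, 1.55 and 1.65 under SETD2 FL, and 10.98 and 12.34 under SETD2 C. Here SETD2 FL was the lowest group and SETD2 C the highest, without overlap. LINC01011 rose under SETD2 C by 1.95 (SE of 0.11, adjusted p = 2.99e-05, limma with Benjamini-Hochberg adjustment), to 4.95 times the mean TPM in KO. Its body overlaps that of NQO2, a quinone reductase gene, on the same strand. NQO2 had a log2 fold change of -0.48 (SE of 0.06), opposite in sign and under the 2-fold minimum.

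Another 2 of the 6 lie among zinc finger genes of chromosome 19. LINC01535 (ENSG00000226686, chromosome 19 from 37251867 to 37265547, plus strand, 4 exons) had a TPM of 0.60 and 0.85 in the libraries labelled KO, 0.86 and 1.11 under SETD2 FL, and 3.73 and 4.63 under SETD2 C. The SETD2 C libraries were more than 3 times as high as any other, while SETD2 FL lay barely above KO. LINC01535 rose by 1.82 (SE of 0.18, adjusted p = 0.000406, limma with Benjamini-Hochberg adjustment). It starts 3127 bases after the end of ZNF383, which had a log2 fold change of 0.20 (SE of 0.11). LINC00665 (ENSG00000232677, chromosome 19 from 36259540 to 36331770, minus strand, 4 exons), studied in several tumours and reported to encode a small peptide, had a TPM of 1.39 and 1.02 in KO, 2.31 and 2.12 under SETD2 FL, and 6.48 and 5.28 under SETD2 C. Its 3 groups did not overlap and SETD2 FL lay between the others. LINC00665 rose by 1.78 (SE of 0.16, adjusted p = 0.000296, limma with Benjamini-Hochberg adjustment). It starts 2683 bases after the end of ZFP14, with a log2 fold change of 0.34 (SE of 0.19).

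The other 20 members called higher had log2 fold changes between 1.01 and 1.74, and the 26 lay on 14 chromosomes. The highest mean TPM among the 26 was 5.24, and 9 had a mean under 1. None of the 22 members with a mean of at least 10 was among them.

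**Figure D3:**
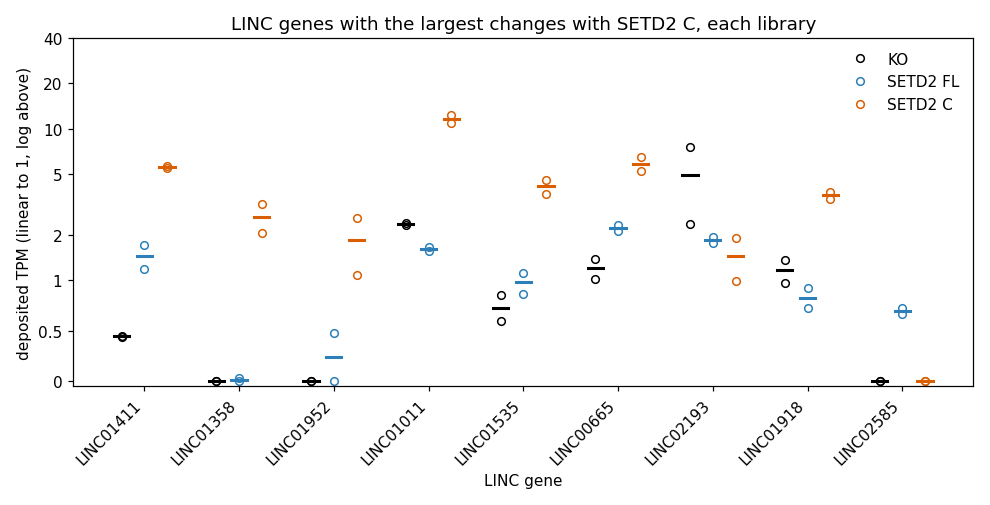
Deposited TPM in the second table of the 9 LINC genes named for called changes under SETD2 C, for KO (black), SETD2 FL (blue) and SETD2 C (orange), where circles are libraries, bars are means of 2, and the axis is linear to 1 and logarithmic above. For LINC01011 the SETD2 C libraries stand at 10.98 and 12.34 and all others at 2.40 or less, while LINC02585 is in these libraries above 0 under SETD2 FL alone.

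The member called lower was LINC02193 (ENSG00000260923, chromosome 16 from 90173217 to 90222851, plus strand, 4 exons). Its deposited TPM stood at 2.36 and 7.60 in the libraries labelled KO, 1.75 and 1.94 under SETD2 FL, and 1.90 and 0.99 under SETD2 C. KO replicate 4 stood apart from the other 5 libraries, while KO replicate 2 was close to SETD2 FL. The log2 fold change was -1.46 (SE of 0.44, adjusted p = 0.0331, limma with Benjamini-Hochberg adjustment). Without KO replicate 4 it was -0.71, and without KO replicate 2 it was -2.23. The call was lost without KO replicate 4, without SETD2 C replicate 1 (-1.80) or 2 (-1.12), with no filter on low TPM and without a trend.

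Promoter windows of 300 bases around the RefSeq start (GRCh38.p14) are shown for 4 of the members named for their changes under SETD2 C, since LINC01411, LINC01358 and LINC01952 were higher under SETD2 C, while LINC02585 was in the second table above 0 in the SETD2 FL libraries alone. Capitals mark ACGTG on either strand (CACGT on the other), letters that hold the core recognised by hypoxia-inducible factors and, in CACGTG, by basic helix-loop-helix factors. All 4 windows are on the plus strand, LINC01411 at chr5:174336104-174336403, LINC01358 at chr1:59020226-59020525, LINC01952 at chr7:44848221-44848520 and LINC02585 at chr3:48663518-48663817.
LINC01411: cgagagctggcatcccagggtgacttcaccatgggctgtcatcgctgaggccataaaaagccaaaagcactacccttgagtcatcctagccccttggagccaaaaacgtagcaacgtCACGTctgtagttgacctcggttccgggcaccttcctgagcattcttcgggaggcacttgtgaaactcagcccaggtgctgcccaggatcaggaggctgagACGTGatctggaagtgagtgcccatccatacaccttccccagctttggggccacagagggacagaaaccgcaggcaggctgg
LINC01358: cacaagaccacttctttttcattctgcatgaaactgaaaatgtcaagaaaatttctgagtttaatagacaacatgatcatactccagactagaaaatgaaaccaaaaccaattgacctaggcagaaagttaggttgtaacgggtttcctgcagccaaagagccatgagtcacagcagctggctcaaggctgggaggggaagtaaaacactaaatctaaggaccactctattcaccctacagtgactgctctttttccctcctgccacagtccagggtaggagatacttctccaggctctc
LINC01952: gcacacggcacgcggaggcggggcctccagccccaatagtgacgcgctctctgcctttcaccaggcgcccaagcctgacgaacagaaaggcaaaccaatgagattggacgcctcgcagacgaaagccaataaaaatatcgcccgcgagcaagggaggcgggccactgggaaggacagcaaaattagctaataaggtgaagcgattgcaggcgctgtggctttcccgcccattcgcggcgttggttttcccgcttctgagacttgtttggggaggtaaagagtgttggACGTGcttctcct
LINC02585: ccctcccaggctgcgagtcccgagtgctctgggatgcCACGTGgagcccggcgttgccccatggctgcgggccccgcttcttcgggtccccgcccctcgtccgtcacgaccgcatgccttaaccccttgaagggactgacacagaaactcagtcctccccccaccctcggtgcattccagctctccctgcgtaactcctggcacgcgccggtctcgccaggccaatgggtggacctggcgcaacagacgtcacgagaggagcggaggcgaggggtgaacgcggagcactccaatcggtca
The LINC01411 window holds the letters 2 times and has 10 CpG dinucleotides, and the LINC01952 window holds them 1 time with 23 CpG. The LINC02585 window holds them on both strands of a single CACGTG, with 27 CpG. The LINC01358 window, whose RefSeq start lies inside the longer annotated gene body, holds none and has 1 CpG. The window of LINC01918 also holds none and has 36 CpG. Of the 35116 RefSeq promoters, 21.4% hold the letters, as do 29.4% of the 170 matched to members and 7 of the 15 matched to members called higher under SETD2 C against KO. The median number of CpG was 14 over all promoters, 18 over the 170 and 16 over the 15. ACGTG itself holds a CpG, and the shares were not tested against each other. LINC01011, LINC01535, LINC00665 and LINC02193 had no entry.

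Counts by position are given beside the 3.75% of all tested genes and the 7.42% of other lncRNA genes called higher under SETD2 C against KO. They take in the members that met the rule through the SETD2 C libraries alone and so had to differ. Members in other positions had 20 of 131 called higher (15.3%) and a median log2 fold change of 0.43. Members whose body overlaps a protein-coding gene had 3 of 42 (7.14%) and a median of 0.33, divergent members 1 of 30 (3.33%) and 0.32, and downstream members 2 of 17 (11.8%) and 0.33. The classes were not tested against each other, and all 4 medians were above 0. Single-exon members had 3 of 25 called higher, those with 2 exons 5 of 49, and those with more 18 of 146. Where no other annotated gene overlapped, 8 of 79 members were higher, and where one did, 18 of 141.

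The nearest protein-coding genes of the members were counted beside all protein-coding genes, of which 2.99% were called higher. The 26 members called higher had 21 distinct nearest protein-coding genes that were tested, of which 1 was called higher and 0 lower by limma, with a median of -0.015. The 139 distinct neighbours of the other members had 6 called higher and a median of 0.014. The neighbour called was ZCCHC12, named here after its value was seen, 12571 bases from LINC01285 (ENSG00000203650, chromosome X from 118839539 to 118919669, plus strand, 10 exons), with a log2 fold change of 1.26 (SE of 0.09) beside 1.14 (SE of 0.16) for LINC01285. Across the 163 members with a tested neighbour, the Pearson correlation of the 2 log2 fold changes was -0.008, a description over genes that share libraries.

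**Figure D4:**
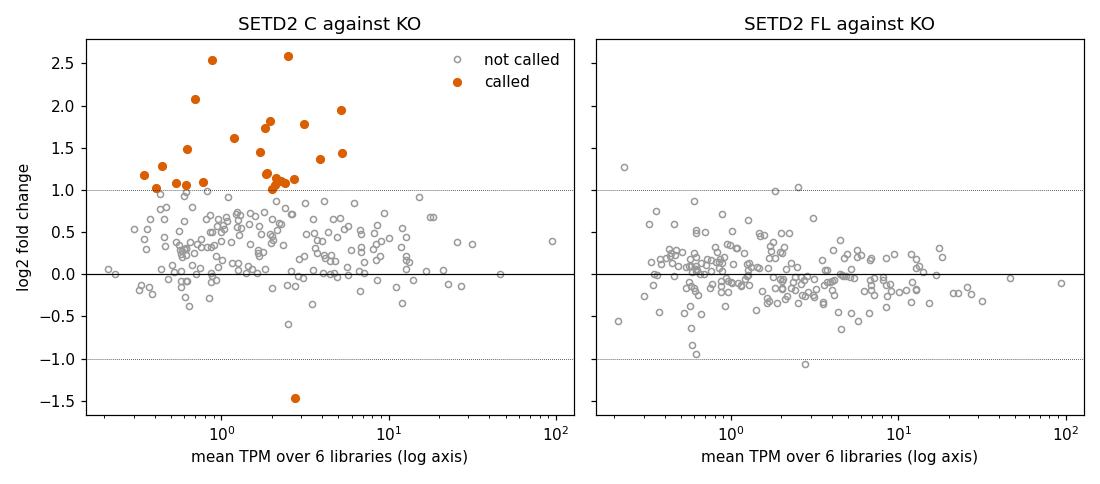
Log2 fold change of the 221 members against their mean TPM (log axis) for SETD2 C against KO (left) and SETD2 FL against KO (right), each point a gene, called genes filled and dotted lines at a fold change of 2. On the left 187 of 221 points lie above 0 and 27 are called, and on the right 106 lie above 0 and none is called.

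Relative to SETD2 FL, members were again more often higher under SETD2 C. Of 221, 25 were called higher (11.3%) and 1 lower (0.452%), where 3.36% of all genes were called higher and 0.42% lower by limma with Benjamini-Hochberg adjustment. The members' median was 0.38 against 0.04 over all genes, and other lncRNA genes had 9.2% called higher and a median of 0.36. Named antisense genes had 6.36% called higher, and host genes 4 of 21 (19%). Under quantile normalization the members' median was 0.185 and that of all genes -0.023, and without scaling they were 0.48 and 0.16. By the adjusted p alone, 87 members were higher and 4 lower (39.4% and 1.81%), where 21.4% and 16.8% of all genes were. Of the 25, 5 met the rule through the SETD2 C libraries alone and had to differ, and more of them may have needed a SETD2 C library to enter. This comparison shares the SETD2 C libraries with the one against KO. 17 members were called higher in both, which is part of the same measurement, 9 against KO only and 8 against SETD2 FL only. Among genes chosen on the first table, 18 of 175 LINC genes were higher (10.3%), where 2.49% of all genes so chosen were. Other lncRNA genes so chosen had 7.9% higher and a median of 0.28, beside 0.32 for the LINC genes. The count of 25 became 13 under quantile normalization, 13 at a pseudocount of 1, 35 without scaling and 40 at a pseudocount of 0.1. Over all genes the 536 called higher became 337, 317, 733 and 854 in the same settings.

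Most members named for an increase against SETD2 FL were also named against KO. LINC01358 and LINC01952, which had to differ by the way they were chosen, had log2 fold changes of 2.50 (SE of 0.22) and 1.58 (SE of 0.39). LINC01011 rose by 2.42 (SE of 0.11, adjusted p = 9.74e-06, limma with Benjamini-Hochberg adjustment), or 7.29 times in mean TPM, with its SETD2 FL libraries below KO. LINC01411 rose by 1.55 (SE of 0.17) and LINC01535 by 1.55 (SE of 0.18). The call of LINC01952 was lost without SETD2 FL replicate 4 (1.08), without SETD2 C replicate 1 (1.09) and with no filter on low TPM.

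LINC01918 (ENSG00000226508, chromosome 2 from 105144113 to 105145424, plus strand, 3 exons) had a TPM of 0.92 and 0.72 under SETD2 FL, 1.35 and 0.97 in the libraries labelled KO, and 3.44 and 3.83 under SETD2 C. SETD2 C was well above both other groups, and SETD2 FL just below KO. LINC01918 rose by 1.55 against SETD2 FL (SE of 0.17, adjusted p = 0.000583, limma with Benjamini-Hochberg adjustment). Its nearest protein-coding gene, MRPS9 of the mitochondrial ribosome, is 44153 bases away and had a log2 fold change of -0.33 (SE of 0.06).

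The 1 member called lower was LINC02585 (ENSG00000228350, chromosome 3 from 48663776 to 48669174, plus strand, 3 exons). It was listed at 0 in both SETD2 C and both KO libraries and had a TPM of 0.66 and 0.72 under SETD2 FL. In the first table it had a TPM of 0.47 and 0 in WT and of 0.50 and 0 in the libraries labelled KO. It met the rule through the SETD2 FL libraries alone and so had to differ. It starts 890 bases from the start of the cadherin gene CELSR3 on the other strand, which had a log2 fold change of 0.13 (SE of 0.13). The call of LINC02585 was lost at a pseudocount of 1.

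Of the 22 distinct neighbours tested of the members called higher against SETD2 FL, 1 was called higher. The other members had 4 of 138 neighbours called higher, and all protein-coding genes 2.23%. The neighbour called was EOLA1, named after its value was seen, whose body overlaps LINC00893 (ENSG00000241769, annotated as EOLA1-DT, chromosome X from 149527591 to 149540959, minus strand, 10 exons). LINC00893 had a TPM of 3.14 and 3.54 under SETD2 FL, 6.68 and 3.77 in KO, and 8.02 and 9.18 under SETD2 C. LINC00893 rose by 1.13 against SETD2 FL (SE of 0.21) and EOLA1 by 2.05 (SE of 0.06). Against KO, EOLA1 was also called higher, at 1.84 (SE of 0.06), while LINC00893 was not called. LINC00893 and EOLA1 lie on opposite strands, so their values are uncertain if counting did not use strand. LINC00893 also overlaps a protein-coding gene on its own strand, where strand does not tell reads apart.

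With SETD2 FL against KO, no member passed the test. Of 221 members, 0 were called higher and 0 lower by limma with Benjamini-Hochberg adjustment, 35 had an unadjusted p under 0.05 (2534 of all 15947 genes did), and 0 passed the adjusted p alone, where 0.0752% of all genes were called higher and 0.00627% lower, and 0.176% and 0.0314% by the adjusted p alone. Of the other settings, 3 called 1 member higher, namely no filter on low TPM, no scaling and no trend in the variance model. The members' median was -0.02, with 106 of 221 above 0, against a median of 0.01 over all genes. Values are given for the members furthest apart without overlap.

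LINC02585, listed at 0 in KO and at 0.66 and 0.72 under SETD2 FL, had to differ by the way it was chosen, and no p-value is given for it. LINC01411 had a log2 fold change of 1.04 (SE of 0.17, adjusted p = 0.0819, limma with Benjamini-Hochberg adjustment), and its TPM of 1.72 and 1.19 against 0.44 and 0.45 put SETD2 FL above KO without overlap, past the threshold without scaling (adjusted p = 0.0376 in limma) in a range of 0.0376 to 0.257. LINC00475 (ENSG00000225511, chromosome 9 from 92141438 to 92141650, plus strand, 1 exon) is annotated as a pseudogene. It had a TPM of 0.32 and 0.84 in the libraries labelled KO, 1.17 and 2.09 under SETD2 FL, and 3.22 and 3.32 under SETD2 C. The groups were ordered KO, SETD2 FL and SETD2 C, and the log2 fold change for SETD2 FL was 0.98 (SE of 0.27), or 0.62 without KO replicate 2 and 1.35 without KO replicate 4. SPTLC1, of sphingolipid synthesis, is its nearest protein-coding gene, with a log2 fold change of 0.09 (SE of 0.09).

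On the lower side, LINC02193 had a log2 fold change of -1.06 (SE of 0.44), which was -0.30 without KO replicate 4 and -1.82 without KO replicate 2. LINC02453 (ENSG00000245017, chromosome 12 from 98485544 to 98503859, minus strand, 4 exons) had a TPM of 1.20 and 0.30 in KO, 0.19 and 0.05 under SETD2 FL, and 1.24 and 0.71 under SETD2 C. LINC01786 (ENSG00000230415, chromosome 1 from 1275223 to 1280420, plus strand, 3 exons) had a TPM of 4.37 and 4.87 in KO, 2.03 and 3.86 under SETD2 FL, and 6.26 and 5.86 under SETD2 C. In both genes SETD2 FL lay below the other groups, at log2 fold changes of -0.94 (SE of 0.36) and -0.64 (SE of 0.21) against KO. For LINC02453 the value was -0.39 without KO replicate 2 and -1.497 without KO replicate 4. For LINC01786 it was -0.27 without SETD2 FL replicate 3 and -1.02 without SETD2 FL replicate 4. Their nearest protein-coding genes, TMPO of the nuclear lamina and the sodium channel gene SCNN1D, had log2 fold changes of -0.04 (SE of 0.05) and -0.20 (SE of 0.14).

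WT against KO was measured in the first table, whose values chose no member. Of the 221 members 164 reached the minimum there and were tested, and 3 were called higher in WT (1.83%) and 4 lower (2.44%) by limma with Benjamini-Hochberg adjustment, where 1.02% of all 14756 genes were called higher and 0.339% lower. By the adjusted p alone 6 were higher and 7 lower (3.66% and 4.27%), where 3.16% and 1.31% of all genes were. The median of the 164 was 0.07, against 0.01 over all genes and 0.10 over other lncRNA genes, and turned to -0.023 without scaling and -0.002 under quantile normalization, where no scaling moved the median of all genes to -0.11. Of the 4 lower, 2 (LINC00992 and LINC01602) reached the minimum of the first table through the libraries labelled KO alone and had to differ, so the count supports nothing. Leaving out 1 library ended several of these 7 calls. WT replicate 1 stood apart in the summed TPM of mitochondrially encoded genes, at 231804 where WT replicate 2 had 140783 and the libraries labelled KO 119876 and 124299, and in its scaling factor of 0.879, where the others had 1.04 to 1.06. Of the markers, LIN28B had a TPM of 24.1 and 33.1 in WT and of 41.5 and 43.8 in KO, and INA of 9.98 and 11.6 in WT and of 7.35 and 7.16 in KO. The part of these differences in the members' values was not tested. Without WT replicate 1 the calls of LINC01605 (1.60), LINC01602 (-1.34) and LINC02253 were lost, and a member outside these 7 was called lower.

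LINC01535, the zinc finger cluster RNA, had a TPM of 5.76 and 4.85 in WT and of 0.84 and 0.41 in the libraries labelled KO. WT was well above KO without overlap, and the gene was higher by 2.49 (SE of 0.23, adjusted p = 0.00374, limma with Benjamini-Hochberg adjustment), 8.49 times in mean TPM. With no filter on low TPM its adjusted p was 0.0655 from limma and the call was lost. Without scaling the adjusted p from limma was 1.22e-26 at a log2 fold change of 2.39, far under the next lowest, 0.000851 with the replicate block. LINC00665 had a TPM of 7.23 and 7.57 in WT and of 1.78 and 2.06 in KO. Replicates were close and groups apart, with a difference of 1.82 (SE of 0.13, adjusted p = 0.00125, limma with Benjamini-Hochberg adjustment). Their neighbours ZNF383 and ZFP14 had log2 fold changes of 0.19 (SE of 0.19) and 0.08 (SE of 0.17). LINC01605 (ENSG00000253161, chromosome 8 from 37421341 to 37554183, minus strand, 6 exons) had a TPM of 10.0 and 11.4 in WT and of 2.26 and 5.20 in KO. WT was above both KO libraries, which differed from each other, and the gene was higher by 1.62 (SE of 0.31, adjusted p = 0.0408, limma with Benjamini-Hochberg adjustment). This call was lost without WT replicate 1 (1.60) or 2 (1.64), with no filter on low TPM and without a trend. The transcription factor gene ZNF703, 141599 bases from it, had a log2 fold change of 0.14 (SE of 0.09).

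On the other side, LINC00992 (ENSG00000248663, chromosome 5 from 117415509 to 117546298, plus strand, 4 exons) had a TPM of 0.36 and 0.22 in WT and of 1.66 and 2.17 in KO. LINC00992 entered the test of that table through the libraries labelled KO alone and so had to differ, and no p-value is given for it. Its log2 fold change was -1.53 (SE of 0.21), and the call was lost without KO replicate 1 (-1.68) or 2 (-1.36) and with no filter on low TPM. LINC00632 (ENSG00000203930, chromosome X from 140709562 to 140793215, plus strand, 5 exons), the RNA whose locus gives rise to the circular RNA CDR1as, had a TPM of 2.03 and 1.94 in WT and of 6.69 and 5.66 in KO. Both KO libraries were about 3 times as high as WT, at a log2 fold change of -1.31 (SE of 0.14, adjusted p = 0.00665, limma with Benjamini-Hochberg adjustment). With no filter on low TPM that call was lost (adjusted p = 0.0785 in limma). LINC01602 (ENSG00000205293, chromosome 8 from 57855500 to 57984126, plus strand, 4 exons) had a TPM of 0.10 and 0.05 in WT and of 0.90 and 0.89 in KO. KO replicates were nearly equal and WT near 0, at a log2 fold change of -1.22 (SE of 0.20). LINC01602 too entered that test through the libraries labelled KO alone and so had to differ. The call was lost without WT replicate 1 (-1.34), without KO replicate 1 (-1.22) or 2 (-1.21), at a pseudocount of 1 (-0.78) and with no filter on low TPM. The other member called lower, LINC02253 (ENSG00000259485, chromosome 15 from 97215812 to 97432094, plus strand, 6 exons), named after its values were seen, had a TPM of 4.55 and 6.48 in WT and of 12.5 and 13.4 in KO. Its log2 fold change was -1.06 (SE of 0.12). The call of LINC02253 was lost without WT replicate 1, without KO replicate 2, at a pseudocount of 1 and with no filter on low TPM. With no filter on low TPM, limma called 1 member higher and 0 lower in WT, beside 48 members at an unadjusted p under 0.05. Over all genes the 150 called higher became 58 in that setting and the 50 called lower became 15, so the fall was not particular to members.

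The nearest protein-coding genes of the members lower in WT were not called in that comparison. SEMA6A is 840686 bases from LINC00992 and had a log2 fold change of -0.44 (SE of 0.14). SOX3 is 204493 bases from LINC00632 and was under the minimum level. FAM110B is 10397 bases from LINC01602 and had a log2 fold change of -0.02 (SE of 0.13).

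The comparison of WT with KO and that of SETD2 C with KO share no library, so the members can be set side by side. The 3 members higher in WT were all called higher under SETD2 C, where 11.8% of members and 3.75% of all genes were. The same overlap over all genes is not given here, so this count is not shown to be particular to members. LINC01605 had a TPM of 2.59 and 3.26 in KO of the second table, 3.61 and 2.66 under SETD2 FL, and 8.64 and 10.7 under SETD2 C, a rise of 1.43 (SE of 0.18, adjusted p = 0.00106, limma with Benjamini-Hochberg adjustment). With SETD2 FL the log2 fold changes of these 3 were 0.27 for LINC01535, 0.67 for LINC00665 and 0.06 for LINC01605. None of the 4 members lower in WT was called lower under SETD2 C. So few genes were called lower there (0.452% of members, 0.314% of all genes) that this count says nothing about members. LINC01602 rose instead, from 1.68 and 1.76 in KO to 4.54 and 5.12 under SETD2 C, by 1.14 (SE of 0.13, adjusted p = 0.000841, limma with Benjamini-Hochberg adjustment). LINC00632 had a TPM of 13.2 and 12.7 in KO and of 22.8 and 23.8 under SETD2 C, a log2 fold change of 0.68 (SE of 0.11), under the 2-fold minimum. LINC00992 and LINC02253 had log2 fold changes of 0.38 (SE of 0.18) and -0.06 (SE of 0.11). Of the 26 members called higher under SETD2 C, 15 were tested in the first table, and 11 of the 15 had a log2 fold change above 0 in WT against KO, with a median of 0.32, where 99 of all 164 members tested there were above 0. Across the 164 members the Pearson correlation of the 2 log2 fold changes was 0.295 and the Spearman correlation 0.132, and with SETD2 FL against KO in place of SETD2 C they were -0.007 and -0.15, a description over genes, which are not independent replicates. The tables were normalized separately, and levels in the libraries labelled KO differed between them for some members, as for LINC00632 at 6.69 and 5.66 in the first and 13.2 and 12.7 in the second.

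**Figure D5:**
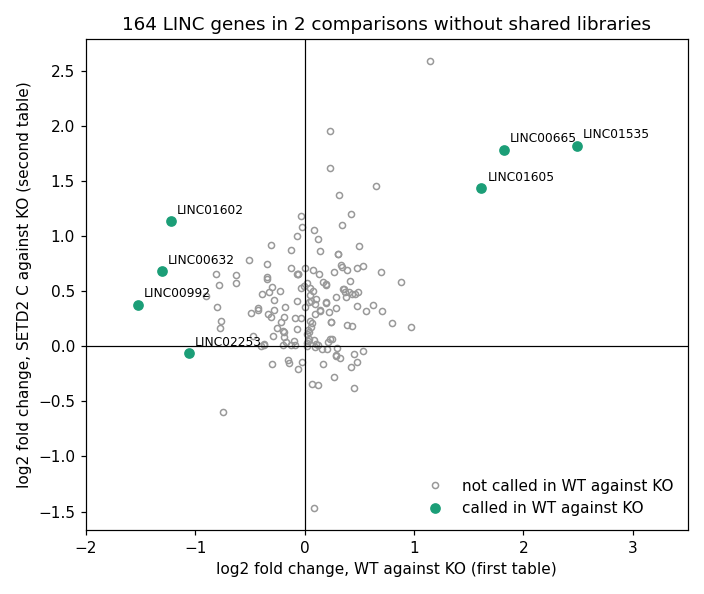
Log2 fold change of 164 LINC members in WT against KO (horizontal) and in SETD2 C against KO (vertical), each point a gene, with the 7 called in WT against KO filled and named. The 3 members higher in WT lie at 1.43 to 1.82 on the vertical axis, while the 4 lower in WT lie between -0.06 and 1.14.

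Members with a reported role were followed as a list. Of 13 symbols on this list, 10 were members, and LINC00261 stood at 0 in every library of the second table. The symbols LINC00473 and LINC00908 did not occur in that table. LINC00665 was described above and was called against both groups. LINC00173 (ENSG00000196668, chromosome 12 from 116533422 to 116536518, plus strand, 3 exons), which has been linked to granulocyte development, had a TPM of 11.98 and 11.35 in KO, 10.1 and 8.48 under SETD2 FL, and 26.0 and 23.7 under SETD2 C. It was the most abundant member called in any comparison of the second table and rose against SETD2 FL by 1.25 (SE of 0.11, adjusted p = 0.000219, limma with Benjamini-Hochberg adjustment). Against KO its log2 fold change was 0.91 (SE of 0.11), just under the 2-fold minimum.

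The remaining 8 were not called under SETD2 C in either comparison. LINC00467 (ENSG00000153363, chromosome 1 from 211382736 to 211435570, plus strand, 6 exons), reported to encode a small mitochondrial protein, had a TPM of 7.46 and 6.26 in KO, 7.96 and 8.66 under SETD2 FL, and 11.7 and 14.1 under SETD2 C. LINC00662 (ENSG00000261824, chromosome 19 from 27681072 to 27794005, minus strand, 8 exons) had a TPM of 4.13 and 3.91 in KO, 3.97 and 3.98 under SETD2 FL, and 7.91 and 6.95 under SETD2 C. LINC01138 (ENSG00000274020, chromosome 1 from 148290889 to 148519604, minus strand, 9 exons), reported to bind the arginine methyltransferase PRMT5, had a TPM of 8.15 and 8.03 in KO, 7.03 and 7.11 under SETD2 FL, and 11.3 and 12.6 under SETD2 C. In all 3 the SETD2 C libraries lay above the other 4, at log2 fold changes against KO of 0.72, 0.67 and 0.39. LINC00511 (ENSG00000227036, chromosome 17 from 72290091 to 72640472, minus strand, 6 exons), studied in breast and lung tumours, had a log2 fold change of 0.41 (SE of 0.18). LINC01137 (ENSG00000233621, chromosome 1 from 37350934 to 37474432, minus strand, 2 exons), which starts 148 bases from the start of the RNase gene ZC3H12A, had one of 0.33 (SE of 0.19). LINC00339 (ENSG00000218510, chromosome 1 from 22024558 to 22031223, plus strand, 3 exons), linked to CDC42 in bone cells, had a TPM of 11.4 and 11.6 in KO, 9.76 and 10.6 under SETD2 FL, and 11.1 and 11.7 under SETD2 C.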

How the data were processed

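RNA libraries were prepared after ribodepletion and poly(A) enrichment, so RNAs without a poly(A) tail are poorly captured. The authors aligned reads with STAR 2.6.1c to hg38 with Ensembl 96 models and deposited TPM values from RSEM 1.3.0, with no normalization between libraries. ChIP samples were not analysed here. Libraries were scaled to each other by median ratios to the geometric mean, taken where every library had a TPM of 1 or more. Protein-coding and lncRNA genes, and members of other types, entered the test if 2 or more libraries reached a TPM of 0.5. The test was limma 3.58.1 (R 4.3.3, eBayes with trend) on log2 values with a pseudocount of 0.5, in 1 fit per table, with p-values adjusted over all genes tested. A call took a fold change of 2 or more and an adjusted p not above 0.05. The code was tested on simulated data. Named genes were the 6 largest increases and 4 largest decreases called without overlap in each SETD2 C comparison, 3 of each in the others, the 6 highest means, genes at the edge of the rule, a list with reported roles, and nearest protein-coding genes. Members and lists were chosen with earlier results of these data known.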

Additional observations from a re-analysis of the deposited data

How the results depend on the processing

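The number of members called higher with SETD2 C against KO (26) was 12 at a pseudocount of 1, 17 at a mean TPM of at least 1, 15 of 164 with genes chosen on batch 1, 12 under quantile normalization and 78 by the adjusted p alone, and 23 to 28 with 1 library left out. The 1 member lower became 0 with no filter and 0 without a trend, 3 by the adjusted p alone, and 0 to 1 with 1 library left out. Against SETD2 FL the 25 higher became 40 and 13 at pseudocounts of 0.1 and 1, 13 under quantile normalization and 87 by the adjusted p alone. The 1 lower became 2 and 0 at these pseudocounts, 0 at a mean TPM of at least 1, 0 on the batch 1 choice, 2 under quantile normalization, 4 by the adjusted p alone, and 1 to 2 with 1 library left out. For SETD2 FL against KO, 0 higher became 1 with no filter, 1 without scaling and 1 without a trend. For WT against KO, 3 higher became 1 with no filter and 6 by the adjusted p alone, and 4 lower became 2 at a pseudocount of 1, 0 with no filter, 7 by the adjusted p alone, and 1 to 5 with 1 library left out. A lone library was then assumed to vary like the other groups. Causes were not tested, except that an adjusted p alone sets no fold. Over all genes the counts called higher in both SETD2 C comparisons also moved with the pseudocount and the normalization, as given above. Those of WT against KO also fell with no filter. With the replicate block in WT against KO 4 were higher and 4 lower; same-numbered libraries had a correlation of deviations of 0.147, so the numbers are not taken to pair them. Among members named for a change, no direction turned in the settings run for them, and the other named genes were not put through them one by one. Depth is unknown and limits every low value.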
